A study of Caenorhabditis elegans with 2 samples.

Results

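The X chromosome promoter peaks described here are sites recovered with the nuclear hormone receptor NHR-77 of the nematode Caenorhabditis elegans, close to the starts of genes on the sex chromosome. They are the peaks on X, in the authors' reproducible peak set for the ce11 build, whose summit lies within 500 bp of an annotated start of a protein-coding transcript. This rule took 285 of the 702 peaks on X, out of 3457 peaks in all. It used positions and not peak strength, so signal, replicate ranks, gene content and sequence are measures the rule did not use, apart from the threshold every peak had passed.

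The assay was chromatin immunoprecipitation with sequencing (ChIP-seq), which pulls down a protein with its DNA and maps that DNA back to the chromosomes. Both samples came from whole L4 larvae, the last larval stage, of strain OP353, genotype unc-119(tm4063) III; wgIs353, of mixed sex, and the labels number them biological replicates 1 and 2. The transgene wgIs353 supplies NHR-77 fused to the fluorescent protein eGFP, and the unc-119 mutation is shared by every animal in both samples. Both replicates form 1 group and no untagged strain was analysed here, so recovery through NHR-77 cannot be told apart from recovery of open chromatin by other means, and no test between conditions was possible. Whole animals mix all tissues, so a site in few cells and a weak site in many cells cannot be told apart. The labels do not say which cells make the fusion protein.

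Nuclear hormone receptors are transcription factors with a zinc-finger DNA-binding domain and a ligand-binding domain, and C. elegans has an unusually large family of them. Males carry a single X and hermaphrodites a pair. A dosage compensation complex, started by SDC-2 in hermaphrodites, lowers the output of X genes in the body, and X is poor in genes of the germ line. Many worm messages are trans-spliced to a short leader, so the annotated start often lies downstream of the place where transcription begins.

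The sequences at the summits of the 8 strongest X promoter peaks show what the most strongly recovered X promoters look like. Each run reaches 60 bases to either side of the summit, read 5′ to 3′ along the strand of the nearest gene, from the RefSeq WBcel235 genome (the ce11 build), counting from 1. Capitals mark, on either strand, GATA words and 3 other kinds of word. A GATA word is here AGATAA or else AGATAG, and likewise TGATAA or else TGATAG. The other kinds are the longer GATA word CTGATAA, then the E-box CACGTG, and last the GA repeat GAGAGAGA. Marks cover the whole printed run, whereas the counts given later use 50 bp to either side of the summit.
puf-9, chrX:5841256-5841376, plus strand: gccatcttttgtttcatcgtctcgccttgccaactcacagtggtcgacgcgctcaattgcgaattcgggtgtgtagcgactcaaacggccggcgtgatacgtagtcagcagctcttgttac
nipi-3, chrX:15607640-15607760, plus strand: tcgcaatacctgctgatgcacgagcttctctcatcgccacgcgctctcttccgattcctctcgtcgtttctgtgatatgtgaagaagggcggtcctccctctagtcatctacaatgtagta
serp-1.1, chrX:15841203-15841323, plus strand: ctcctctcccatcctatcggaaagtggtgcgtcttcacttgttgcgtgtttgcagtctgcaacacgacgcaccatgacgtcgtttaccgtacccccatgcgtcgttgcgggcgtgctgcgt
C05G5.2, chrX:14747105-14747225, plus strand: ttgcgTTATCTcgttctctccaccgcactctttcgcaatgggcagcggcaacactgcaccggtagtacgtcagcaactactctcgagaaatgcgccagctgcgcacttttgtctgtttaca
rpl-11.2, chrX:2242907-2243027, minus strand: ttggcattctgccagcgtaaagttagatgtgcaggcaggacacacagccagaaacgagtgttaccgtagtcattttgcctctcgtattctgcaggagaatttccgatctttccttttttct
sym-4, chrX:14169784-14169904, minus strand: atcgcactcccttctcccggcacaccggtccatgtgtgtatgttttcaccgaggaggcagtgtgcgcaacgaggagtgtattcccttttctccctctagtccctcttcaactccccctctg
sdc-2, chrX:11522254-11522374, plus strand: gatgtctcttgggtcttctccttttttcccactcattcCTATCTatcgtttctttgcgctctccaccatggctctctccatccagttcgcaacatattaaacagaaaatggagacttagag
F18H3.4, chrX:13528710-13528830, plus strand: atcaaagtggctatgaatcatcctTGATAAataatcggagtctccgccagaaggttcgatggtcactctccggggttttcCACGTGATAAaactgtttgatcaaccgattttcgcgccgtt
The 6 strongest held no GATA word within 50 bp of the summit, and the first such word came at the peak of sdc-2. At F18H3.4 an E-box and a GATA word overlapped. The share of G and C within 50 bp of these summits varied. It was 56.4% at puf-9 and C05G5.2, 55.5% at serp-1.1, 54.5% at sym-4 and 53.5% at nipi-3. Lower shares were found at rpl-11.2 (47.5%), sdc-2 (44.6%) and F18H3.4 (43.6%), beside a median of 43.6% over the 285 peaks.

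A further 7 runs show the strongest other X promoter peaks with each of the rarer words near the summit. The peaks of ztf-13, gst-42 and F09C8.1 were chosen for CTGATAA, those of K02A6.3 and sfxn-1.5 for CACGTG, and those of C07D8.6 and vha-15 for GAGAGAGA.
ztf-13, chrX:3102397-3102517, minus strand: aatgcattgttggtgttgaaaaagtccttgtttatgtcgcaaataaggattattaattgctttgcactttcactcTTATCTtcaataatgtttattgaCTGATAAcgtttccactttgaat
gst-42, chrX:11727883-11728003, minus strand: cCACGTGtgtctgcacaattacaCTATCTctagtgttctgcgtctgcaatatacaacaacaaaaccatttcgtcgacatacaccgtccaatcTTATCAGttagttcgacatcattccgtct
F09C8.1, chrX:16163568-16163688, minus strand: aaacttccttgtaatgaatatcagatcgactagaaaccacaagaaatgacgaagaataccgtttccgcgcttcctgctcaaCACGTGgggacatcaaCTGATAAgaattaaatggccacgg
K02A6.3, chrX:8232017-8232137, minus strand: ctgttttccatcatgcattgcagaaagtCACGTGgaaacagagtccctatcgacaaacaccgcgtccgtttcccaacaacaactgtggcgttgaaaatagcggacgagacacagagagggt
sfxn-1.5, chrX:11661773-11661893, minus strand: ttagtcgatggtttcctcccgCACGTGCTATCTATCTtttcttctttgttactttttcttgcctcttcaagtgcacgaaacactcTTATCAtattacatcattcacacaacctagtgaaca
C07D8.6, chrX:7341096-7341216, plus strand: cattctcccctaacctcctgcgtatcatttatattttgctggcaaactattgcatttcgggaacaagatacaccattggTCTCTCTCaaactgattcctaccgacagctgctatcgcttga
vha-15, chrX:2237594-2237714, plus strand: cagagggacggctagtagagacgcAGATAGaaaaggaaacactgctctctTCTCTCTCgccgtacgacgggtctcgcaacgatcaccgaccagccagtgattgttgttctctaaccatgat
The gst-42 and F09C8.1 runs carry both a CTGATAA word and an E-box, while the vha-15 run carries a GATA word beside its GA repeat.

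The strongest X promoter peak lay upstream of puf-9, which encodes an RNA-binding protein of the Pumilio family. Its signal, the authors' enrichment value, was 109 in replicate 1, 234 in replicate 2 and 344 in the pooled list, and it ranked 33, 28 and 27 in those lists. The scale of the signal differs between lists, so ranks are used to compare them. The summit lay 276 bp upstream of the start, at -276 when upstream distances are written as negative. The peak of nipi-3, a gene of the innate immune response to infection, ranked 49 and 43 in replicates 1 and 2, with a pooled signal of 250. Both replicates thus placed these peaks among their strongest regions.

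The peaks ranked next among those on X at starts were spread over several cellular roles. The peak of serp-1.1, a stress-associated protein of the endoplasmic reticulum, ranked 173 and 40, that of C05G5.2, annotated as the FAM21 subunit of the endosomal WASH complex, 127 and 92, and that of rpl-11.2, a protein of the large ribosomal subunit, 113 and 107. The peak of sym-4, which encodes a WD repeat protein, ranked 483 and 72. Of these 4, sym-4 was placed least alike by the replicates. The peak of sdc-2 ranked 124 and 180 and had a pooled signal of 172, and that of F18H3.4, annotated with a lebercilin domain, ranked 240 and 150 with 159.

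The remaining 17 of the 25 strongest had pooled signals between 132 and 157. Enzymes of glycoprotein folding were among them, with the mannosidases ZC506.1 (rank 182 of all peaks) and mans-3 (rank 286) and the folding sensor uggt-1 (rank 278). Transport and metabolism appeared with F17E5.2, annotated as a calcium-binding mitochondrial carrier (rank 215), tatn-1, the tyrosine aminotransferase (rank 217), vha-12, a subunit of the vacuolar proton pump (rank 235), asg-2, a subunit of mitochondrial ATP synthase (rank 274), and nhx-5, a sodium/proton exchanger (rank 296). The others lay near glit-1, a neuroligin-like gene (rank 185), ZK1193.2 with a von Willebrand factor A domain (rank 187), C18B12.4 with a RING domain (rank 192), K02A6.3 with an F-box (rank 201), R04E5.9, which is uncharacterized (rank 243), F53A9.8 (rank 246), F13C5.2 with a bromodomain (rank 266), spp-5, a saposin-like antimicrobial protein (rank 289), and tsp-21, a tetraspanin (rank 300). The nearest start states proximity only. The summit assigned to F53A9.8 lay 494 bp downstream of its start, past the end of this short gene, and that of tsp-21 lay in an intron at 179 bp. Only these 2 and R04E5.9 (30 bp) had a summit downstream of the start among the 25.

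**Figure D1:**
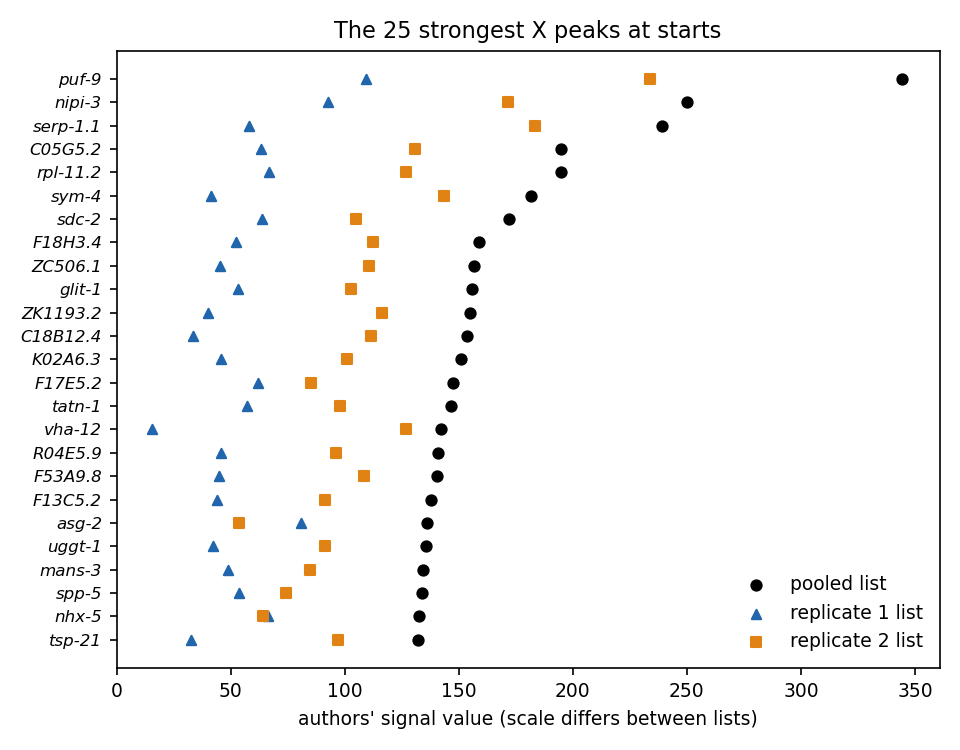
Authors' signal value of the 25 strongest X promoter peaks, named by the gene with the nearest start, in the pooled list (circles) and in the replicate 1 (triangles) and replicate 2 (squares) lists, whose scales differ. Replicate 2 values lie above those of replicate 1 for most peaks, and vha-12 and asg-2 stand out by their order, with 15.4 and 126.8 for vha-12 but 80.9 and 53.6 for asg-2.

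The X promoter peaks had a median signal close to that of autosomal peaks at starts and a lower highest value. Pooled signals ran from 46.7 to 344 with a median of 69.5 (quartiles 57.6 and 95.5), and the median of the 1480 autosomal peaks at starts was 68.1, with a highest value of 596. None of the 20 strongest peaks of the genome was an X promoter peak (0% of the 285, upper bound 1.33%). Among the 50 strongest were 2, puf-9 and nipi-3 (0.70%, 0.19 to 2.52), and among the 100 strongest 5 (1.75%, 0.75 to 4.04). The shares over all peaks were 0.58%, 1.45% and 2.89%, within these bounds. Of the 20 strongest peaks, 13 lay on X away from starts. Only 1 X promoter peak lay within 10000 bp of any of those 13, at a distance of 4315 bp. Among the 500 strongest peaks were 47 X promoter peaks, 16.5% of the 285 (95% Wilson interval 12.6 to 21.2), and 16.8% of the autosomal peaks at starts. Intervals here and later cover counting of peaks or genes only, since the read depth behind each peak is unknown.

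The authors' −log10 q does not order these peaks, because all 3457 share its highest value, 3.872. The threshold on reproducibility kept 3457 of the 30000 regions of the pooled list, 11.5%, and these are exactly the regions with the highest pooled signals. Among pooled regions on X with a summit within 500 bp of a start, 285 of 1378 were kept, 20.7%. The weakest X promoter peaks had signals just above the limit, with 46.72 at spp-2, a saposin-like gene, 46.88 at egl-13, a SOX-family transcription factor, and 46.94 at ifp-1, an intermediate filament gene. The strongest regions at X starts just below it had 46.63 at F48D6.4 and 46.5 at both ceh-93 and K09C4.5. Membership at this edge thus turned on small differences in signal.

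Both replicates held nearly every X promoter peak, but they ordered them differently. A region in each replicate list overlapped 281 of the 285 peaks (98.6%), beside 98.5% of all peaks and 98.3% of autosomal peaks at starts. Each list holds 30000 regions, background included, and the peaks had been kept for reproducibility, so such overlap was likely by construction. The exceptions were rbg-1 and plpp-1.3, with no overlapping region in replicate 2, and ugt-50 and acp-5, with none in replicate 1. Among the 3457 strongest regions of replicate 1 were 211 of the peaks (74%), among those of replicate 2 were 259 (90.9%), and in both were 187 (65.6%, 59.9 to 70.9). For autosomal peaks at starts the shares were 76.4%, 85.8% and 63.7%. Only 2 X promoter peaks, plpp-1.3 and acl-1, were among the strongest in neither. The median rank was 1860 in replicate 1 (33 to 21671) and 1613 in replicate 2 (28 to 12090), and 111 of 281 peaks (39.5%, 34 to 45.3) ranked higher in replicate 1. On the autosomes that share was 45.4%, and for X peaks away from starts it was 50%. X promoter peaks thus ranked higher in replicate 2 more often than in replicate 1, and the part of library depth or quality in this was not tested.

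Across the 281 X promoter peaks found in both lists, the ranks correlated with a Spearman coefficient of 0.39 and the log2 signals with Pearson's r 0.42. The same measures were 0.46 and 0.55 over 1455 autosomal peaks at starts, and 0.41 and 0.65 over 408 X peaks away from starts. Over all 3405 peaks found in both lists they were 0.41 and 0.51. These describe peaks that share the same libraries and were kept for a high pooled signal, which narrows the range. A peak strong in the pooled signal is by construction likely to be strong in each replicate. Of the 72 X promoter peaks with the highest pooled signal, 70 (97.2%) were among the strongest regions of both replicates. In the following 3 groups of 71 peaks each, in order of signal, the shares were 84.5%, 66.2% and 14.1%.

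**Figure D2:**
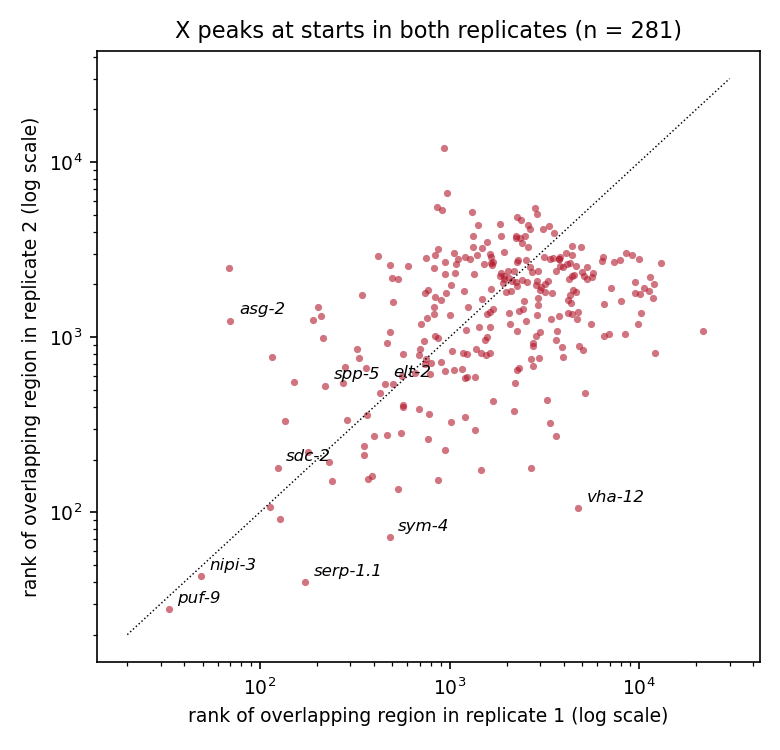
Rank of the overlapping region in replicate 1 (horizontal, log scale) and replicate 2 (vertical, log scale) for the 281 X promoter peaks found in both lists, with the line of equal ranks dotted. The points of puf-9 and nipi-3 lie near the line at the strong end, while vha-12 and asg-2 lie far from it on opposite sides.

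The largest differences between replicates were not all at weak peaks. The peak of vha-12 ranked 4775 in replicate 1 and 106 in replicate 2, a ratio of 45.1, at a pooled rank of 235. The peak of sprr-2, a peptide receptor gene, went the other way, with rank 69 in replicate 1 and 2475 in replicate 2, and one of the peaks of mai-1, a mitochondrial ATPase inhibitor, ranked 21671 and 1089. Among the 281 peaks in both lists, these 3 had the ranks farthest apart as a ratio. The asg-2 peak, at 70 and 1242, was like sprr-2 in its order. By contrast, the peak of snrp-40.1, a U5 spliceosome protein, ranked 754 and 753, and that of hsp-3, an endoplasmic reticulum chaperone, 368 and 361.

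Where both replicates had a region, their summits lay close together. The median distance between them was 35 bp (quartiles 13 and 64), and 195 of 281 pairs (69.4%, 63.8 to 74.5) were at most 50 bp apart. For the autosomal peaks at starts the median was 30 bp and the share 70.2%. The position of an X promoter summit is thus known less finely than single bases, which bears on every count of sequence words made within 50 bp of it.

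The summits gathered upstream of the start. Of the 285, 244 (85.6%, 81.1 to 89.2) lay upstream of the nearest start, beside 85.3% on the autosomes. The median position was -172 bp with quartiles of -283 and -71, and on the autosomes -144 bp with -243 and -47. Summits over 400 bp from the start made up 9.47% on X and 6.62% on the autosomes, and those within 100 bp 26% and 29.9%. Annotated starts on X thus lay somewhat farther from the summits, a difference that was not tested.

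**Figure D3:**
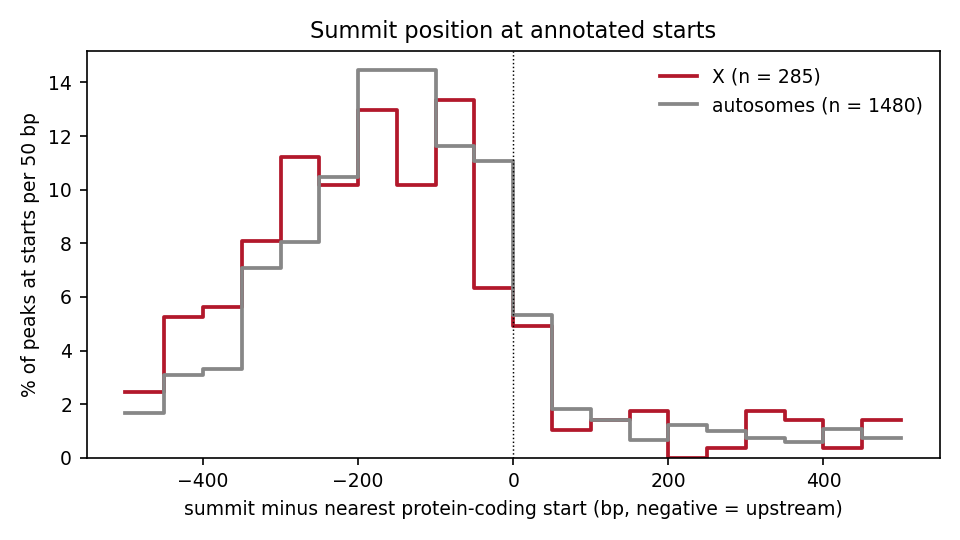
Share of peaks at starts (vertical, percent per 50 bp) by the position of the summit relative to the nearest protein-coding start (horizontal, bp, negative upstream), for X (n = 285) and the autosomes (n = 1480). Both curves are highest within the 300 bp upstream of the start, and the X curve lies above the autosomal one between 300 and 500 bp upstream.

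The letters before the annotated start went with the distance. An annotated start directly after TTTCAG, the core of the worm splice acceptor, is a likely place of trans-splicing, and 57 of the 285 X promoter peaks (20%) had such a nearest start. Their median position was -269 bp, with quartiles of -354 and -195. The other 228 had a median of -143 bp. On the autosomes the medians were -216 bp over 265 peaks and -124 bp over 1215, so the ordering was the same on X and elsewhere.

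Most summits lay outside genes. There were 209 in intergenic sequence (73.3%), 43 in introns (15.1%), 23 in untranslated exons (8.07%) and 10 in coding exons (3.51%). The shares for autosomal peaks at starts were much alike, at 73.45%, 14.2%, 10.4% and 1.96% in that order. The gene around the summit was the nearest gene itself for 71 and another gene for 5 (1.75%), whereas 4.73% of autosomal summits at starts lay inside another gene. Intronic examples were daf-3, a Smad protein of the TGF-beta dauer pathway, at -13 bp from an internal start, act-4, an actin, at -375 bp, and nhr-40 at -391 bp. In each case the nearest start was an internal start of the same gene, downstream of the summit. Coding-exon summits included those of kqt-2, a potassium channel, and sek-3, a kinase of the MAP kinase cascade.

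X promoter peaks seldom served a pair of genes. Starts of 2 or more genes lay within 500 bp of 18 summits (6.32%, 4.03 to 9.76), beside 334 of 1480 (22.6%, 20.5 to 24.8) on the autosomes. A head-to-head arrangement, with starts on opposite strands facing away from each other, accounted for 14 on X (4.91%) and 287 on the autosomes (19.4%). This difference goes with the layout of the chromosomes. Over all protein-coding genes, 5.90% on X (161 of 2731) and 19.6% on the autosomes had a facing start within 1000 bp upstream. X genes with a peak had one in 32 of 295 cases (10.8%, 7.79 to 14.9) and X genes without in 5.30%, while on the autosomes the shares were 41.3% and 17.1%. A single peak between facing starts can count for both genes, which by construction raises the share among genes with a peak.

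Several of the shared X promoters join genes of related or unrelated roles. The peak between glit-1 and the chaperone gene dnj-14 ranked 231 and 194 in replicates 1 and 2. That between asg-2 and glr-6, an ionotropic glutamate receptor, ranked 70 and 1242. The peak between nmat-1, an enzyme of NAD synthesis, and ucr-2.1, a core subunit of respiratory complex III, ranked 506 and 541, and that between trap-2 and ile-2, which both act in the early secretory pathway, 1236 and 591. These peaks cannot be assigned to either gene of a pair.

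Other RNA genes were also close to some summits. The start of a tRNA gene lay within 500 bp of 9 X promoter peaks (3.16%, 1.67 to 5.89), close to the 3.47% of all peaks. It was 1.28% for the autosomal peaks at starts and 13.4% for the X peaks away from starts. Among the 9 were the peaks of ZK1193.2, sor-3, nas-10, lgc-25 and egl-17. A start of a gene annotated as ncRNA lay near 44 (15.4%), beside 13.9% of all peaks and 20.4% of X peaks away from starts. A snoRNA start lay near 1, that of sdha-1 (0.35%), beside 2.20% of all peaks and 0% of X peaks away from starts. No miRNA or snRNA start lay near any of the 285, which allows a share of up to 1.33% for each by the upper Wilson bound. The shares over all peaks, 0.67% and 0.49%, lay below that bound.

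Counting genes instead of peaks, 295 of the 2731 protein-coding genes of X (10.8%, 9.69 to 12) had a summit within 500 bp of a start. Over all 19973 protein-coding genes this was 10.2%, and over the autosomal ones also 10.2%. X had the lowest share of peaks at starts of the 6 chromosomes, 40.6% (37 to 44.3) beside 53.7% for the autosomes together and 49.2% to 58.2% for single autosomes. Starts were also sparser there, since 18.8% of the bases of X and 24% of those of the autosomes lie within 500 bp of one. Per 100 genes, X carried 10.4 peaks at starts and the autosomes 8.58. The share of genes with an X promoter peak was much the same along the chromosome, with 11%, 11.5% and 9.84% in 3 parts of equal length. The median gap between neighbouring summits was 40006 bp and the largest 717515 bp.

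The gene lists used here rest on gene name patterns, and each count is read beside the 10.8% of all X genes. Patterns miss genes without a gene name, which 107 of the 295 X genes with a peak are, so a count of 0 covers named genes only. The 10.8% includes genes without a name, so it rests on a set unlike the lists. Of the 641 X genes in any list, 84 had a peak. Of the 6 X genes of the respiratory chain and ATP synthase, 5 had a peak, beside 36.8% on the autosomes. The asg-2 peak is given above with ranks of 70 and 1242. The peak of ucr-2.2, annotated with a peptidase M16 domain as is ucr-2.1, ranked 333 and 756, that of sdha-1, the flavoprotein of succinate dehydrogenase, 282 and 676, and that of asb-2, the ATP synthase b subunit, 2184 and 381. Only gas-1, a subunit of complex I, had none. With 6 genes the interval of the share runs from 43.7% to 97%.

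Other lists of general cell function were small on X. Of 3 vacuolar ATPase genes, vha-12 and vha-15 had a peak, the latter at ranks 831 and 1355. Of 3 translation factor genes, eef-1A.2, an elongation factor, ranked 1472 and 175, and ife-2, a cap-binding protein, 736 and 949. Of 2 ribosomal protein genes, rpl-11.2 had a peak and rpl-25.1 had not, where 77.2% of the autosomal ones did. Of 5 chaperone genes, hsp-3 and dnj-14 had one, of 5 splicing factor genes snrp-40.1, of 7 genes of glycolysis and the citric acid cycle sucl-1, a succinate-CoA ligase subunit at ranks 3644 and 963, and of 5 histone genes his-24, a linker histone at ranks 1694 and 1447. None of 4 proteasome and ubiquitin genes had one. X holds no mitochondrial ribosomal protein or aminoacyl-tRNA synthetase gene of these lists.

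Genes of the intestine and of defence gave mixed counts. The peak of elt-2, the GATA factor that directs intestinal gene expression, ranked 459 and 543, with the summit at -423 bp. The other 3 X genes of that list, elt-3, elt-4 and med-1, had none. None of the 5 vitellogenin genes of X, which encode yolk proteins made in the adult intestine, had a peak. Of 5 intestinal protease and transport genes, cpr-6, a cathepsin B, ranked 2413 and 2115, and pept-1, the intestinal peptide transporter, 1335 and 3796. Of 12 saposin and lysozyme genes 4 had a peak (33.3%, 13.8 to 60.9), beside 14.3% on the autosomes. That of spp-5 ranked 221 and 529, that of spp-14 5581 and 1195, and that of spp-3 1644 and 1150. Of 3 C-type lectin genes, clec-265 ranked 210 and 1314.

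Detoxification and transport genes gave counts whose intervals all include the share of all X genes, and lipid metabolism genes a share above it. None of the 8 cytochrome P450 genes of X had one (0%, upper bound 32.4%), beside 23.5% of those on the autosomes. Of 16 ABC transporter genes, mrp-5 alone had a peak, at ranks 1084 and 2607 (6.25%, 1.11 to 28.3), beside 25% on the autosomes. Of 4 glucuronosyltransferase genes, ugt-50 had one, found in replicate 2 only at rank 1777, and of 3 glutathione transferase genes gst-42, at ranks 3660 and 271. Lipid metabolism was represented by 9 of 30 genes (30%, 16.7 to 47.9), beside 23.8%. Its strongest peaks were at dhs-26, named as a short-chain dehydrogenase, with ranks 1029 and 835, asm-2, a sphingomyelinase, with 3429 and 1278, and dhs-25, with 6519 and 1544.

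Genes of transcription factors, homeobox genes apart, had shares above that of all X genes. Of 27 nuclear hormone receptor genes on X, 7 had one (25.9%, 13.2 to 44.7), beside 17% on the autosomes. The peak of nhr-1 ranked 785 and 619, that of nhr-35 1158 and 662, and that of nhr-32 1188 and 1837. The others were nhr-3, nhr-17, nhr-45 and nhr-40, with pooled ranks from 2130 to 3217. All 7 summits lay between -289 and -409 bp from the nearest start, each farther upstream than the median of -172 bp. Of 43 other transcription factor genes, 13 had a peak (30.2%, 18.6 to 45.1), beside 20.1%. The peak of ztf-13, a zinc-finger gene, ranked 773 and 263, that of zfp-3, another zinc-finger gene, 571 and 397, and that of daf-3 1024 and 326. Homeobox genes differed, with 1 of 31, psa-3 at ranks 4323 and 1741 (3.23%, 0.572 to 16.2), beside 1.30%.

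Membrane traffic genes had shares above that of all X genes, and signalling genes shares with wide intervals around it. Of 30 synaptic and vesicle genes 8 had a peak (26.7%, 14.2 to 44.5), beside 18.8%. The exocyst gene sec-3 ranked 216 and 986 and dyn-1, the dynamin that cuts endocytic vesicles, 947 and 639. Another exocyst gene, sec-15, shares its peak with C28G1.2, at ranks 777 and 364. Of 13 autophagy and lysosome genes 4 had one (30.8%), beside 33.3%, with scav-1, a CD36-like scavenger receptor, at 1541 and 968, epg-7, an autophagy scaffold, at 3965 and 773, and scav-5 at 4659 and 2557. Of 21 genes of the Wnt, Notch, TGF-beta and EGF pathways 4 did, with daf-3, egl-17, a fibroblast growth factor at ranks 2068 and 2189, and bar-1, a beta-catenin at 11321 and 1841, as the strongest. Of 27 kinase and phosphatase genes 3 did (11.1%), beside 16.8%, with kin-29, a salt-inducible kinase relative, at 747 and 1798, cdk-11.2 at 2935 and 1532, and sek-3 at 10662 and 1913.

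X promoter peaks were few or absent at genes of neuropeptides, neural receptors, adhesion and cuticle. None of 37 neuropeptide and insulin genes (upper bound 9.41%), 34 chemoreceptor genes (10.2%) or 26 axon guidance and adhesion genes (12.9%) of X had one. None of 17 genes named for an F-box or MATH-BTB domain had one (upper bound 18.4%), although K02A6.3, which has an F-box but no gene name, did. For this list and the adhesion list the bounds include the 10.8% of all X genes. Of 58 collagen and cuticle genes, nas-10, a secreted metalloproteinase, was the only one (1.72%, 0.305 to 9.14). Of 78 neurotransmitter and peptide receptor genes 3 did (3.85%, 1.32 to 10.7), namely glr-6, which shares its peak with asg-2, sprr-2, and lgc-25, at ranks 2434 and 1456 and with 2 tRNA genes near the summit. The matching autosomal shares for these 6 lists lay between 0.926% and 5.82%. Ion channel and muscle genes had shares near that of all X genes. Of 45 ion channel genes 4 were counted (8.89%), del-5, a degenerin-like gene at ranks 2460 and 1607, kqt-2 at 3184 and 2000, mec-10, a touch-receptor channel subunit at 4244 and 2158, and unk-1, which RefSeq annotates with a C3H1 zinc finger rather than as a channel. Of 24 muscle genes (8.33%), sgca-1, a sarcoglycan-like gene, ranked 839 and 1012, and act-4 2294 and 2766.

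**Figure D4:**
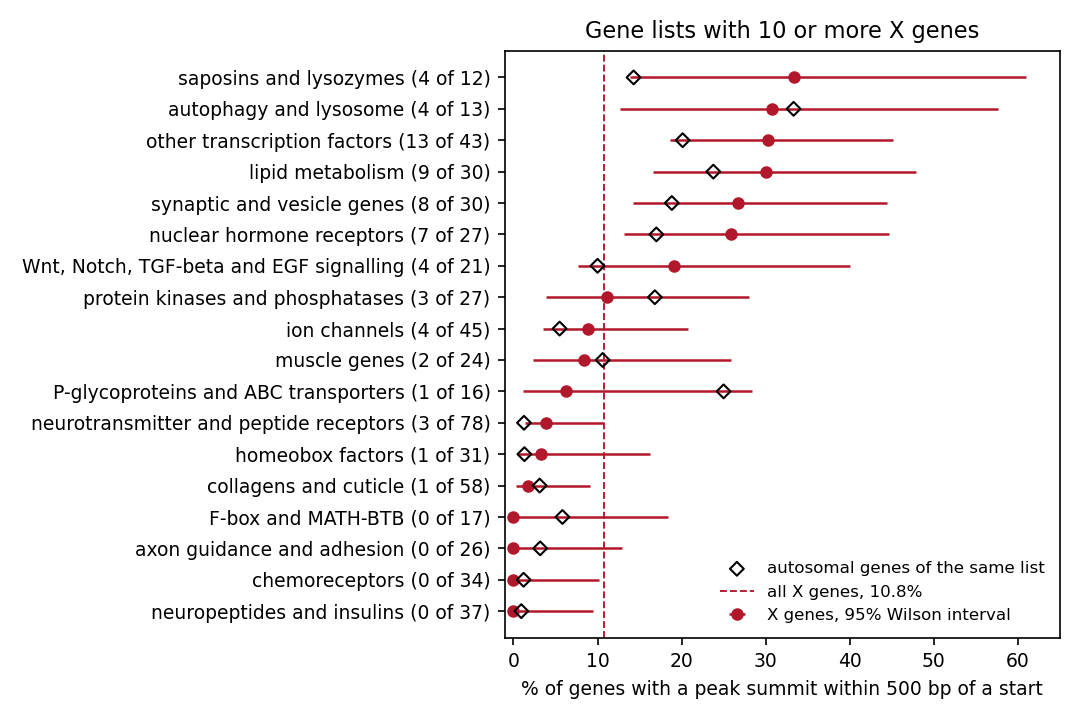
Percent of X genes with a peak summit within 500 bp of a start (circles, with 95% Wilson intervals) for the 18 lists with 10 or more X genes, beside the autosomal genes of the same list (diamonds) and all X genes (dashed line, 10.8%). Transcription factor, lipid, vesicle and nuclear receptor lists lie to the right of the line, and neuropeptide, chemoreceptor, cuticle and adhesion lists lie near 0 on X and on the autosomes.

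The genes that count X chromosomes and start dosage compensation were looked at one by one. Of the 6 on X, sdc-2 had an X promoter peak, described above, with its summit at -393 bp. For xol-1, the master switch of sex, the nearest peak was far upstream at -4874 bp but was the peak of rank 15 in the genome, with a pooled signal of 429. The X signal elements sex-1, a nuclear receptor gene, fox-1, an RNA-binding protein gene, and ceh-39, a homeobox gene, had their nearest peaks at 7969, 8890 and -24707 bp, and sdc-1 at 56327 bp. The pooled list with background held weak regions at -13 bp from a start of fox-1 (signal 18.2, rank 11996) and at 53 bp from one of sdc-1 (signal 14.1, rank 17254). These did not pass the threshold.

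A few genes had 2 X promoter peaks. They were mai-1, pab-2, a poly(A)-binding protein gene, sir-2.2, a sirtuin gene, hpo-34, W07E11.1, a glutamate synthase, ets-4, an ETS transcription factor, hrg-1, a heme transporter, and rga-8. For sir-2.2 the summits lay at -52 and -209 bp from different starts, with pooled signals of 62.7 and 89.5. For hpo-34 they lay at -250 and -283 bp, with 64.3 and 87.1. The W07E11.1 peaks, with signals of 73.9 and 64.8 and summits 199 bp apart, were the only X promoter peaks that overlapped each other.

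At the edge of the 500 bp window the peaks just inside belonged to F53A9.8 (494 bp), dhs-30 (-490 bp) and bar-1 (-487 bp). Just outside were asns-2 (504 bp), gln-1 (-508 bp) and C03B1.13 (518 bp).

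The sequence under the summits was richer in G and C and in several short words than the sequence beside it. The median share of G and C within 50 bp of the summit was 43.6%, beside 33.7% at points 300 bp to either side, 42.6% at autosomal summits at starts, 35.6% at X start regions below the threshold and 34.7% upstream of X starts without a peak. Words were searched on both strands. A GATA word lay within 50 bp of 110 summits (38.6%, 33.1 to 44.4), 1 word in 60 of them, 2 in 43 and 3 or more in 7. The share was 20.7% in the 570 flanking windows, 35.6% at autosomal summits at starts, 33.5% in the 1093 X regions at starts below the threshold, 41.5% at X summits away from starts, and 24.9% at the matching place upstream of 2436 X genes without a peak. GATA words were thus more frequent at X promoter summits than in their flanks, by amounts much like those at other peaks.

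GATA words were not concentrated in the strong peaks. The 110 peaks with one had a median pooled signal of 67.5 and the other 175 a median of 71.7, and in the same 4 groups by signal, from the strongest, the shares were 36.1%, 33.8%, 43.7% and 40.8%. The strongest with a GATA word was sdc-2, followed by F18H3.4, F53A9.8, spp-5 and ztf-13. The peak of elt-2 itself had one. The longer word CTGATAA, which contains a GATA word and is typical of intestinal promoters, lay at 24 summits (8.42%), beside 1.93% of flanks, 11.1% of autosomal summits at starts, 6.77% of X regions below the threshold and 2.34% of X starts without a peak. Its peaks included those of ztf-13, gst-42, F09C8.1, a lipase gene, atf-4, cpr-6 and lbp-3, a fatty acid-binding protein gene.

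Other words were rarer. The E-box CACGTG lay at 17 summits (5.96%), beside 1.05% of flanks and 3.99% of autosomal summits at starts. Its share was near that over all summits, 5.55%, and was 6.7% at X summits away from starts. The peaks with an E-box included F18H3.4, K02A6.3, sfxn-1.5, sgca-1 and nhr-32. The GA repeat GAGAGAGA lay at 10 (3.51%), beside 0.175% of flanks and 3.58% of autosomal summits at starts. The bZIP-type word TGACGT lay at 28 (9.82%), beside 3.51% of flanks and 6.28%, and GCGCGC at 14 (4.91%), beside 0.351% and 6.15%. The GC box CCGCCC lay at 6 (2.11%), beside 1.4% and 5.34%, a share that was 1.04% without replicate 1 and 3.80% without replicate 2. The word shares in the X regions at starts below the threshold were 1.83% for CACGTG, 1.92% for GAGAGAGA, 3.84% for TGACGT, 1.56% for GCGCGC and 2.29% for CCGCCC. At 131 of the 285 summits (46%) at least a GATA word, an E-box, a GA repeat or a GC box lay within 50 bp, and the rest held none of these.

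Words typical of nuclear receptors differed among themselves. The core word AGGTCA lay at 10 (3.51%), beside 2.98% of flanks and 3.29% of X regions below the threshold, among them those of F17E5.2, dhs-25 and spp-3. Its share was 2.28% without replicate 2. The variant AGTTCA lay at 9 (3.16%), beside 8.77% of flanks and 5.95% of autosomal summits at starts. AAGTCA lay at 20 (7.02%), beside 4.21% of flanks, 4.39% of autosomal summits at starts and 5.86% of X regions below the threshold. Runs of TTTTTTTT were also rarer at the summit, with 13 (4.56%) beside 12.1% of flanks. CGCAGGGA is part of the motif of sites where the dosage compensation complex is recruited to X. It lay at 1 summit (0.35%), that of R04E5.9, beside 0.18% of flanks and 0.27% of autosomal summits at starts. At X summits away from starts its share was 2.64% (11 of 417). A word in this window is a description of the letters there and does not identify a bound site.

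**Figure D5:**
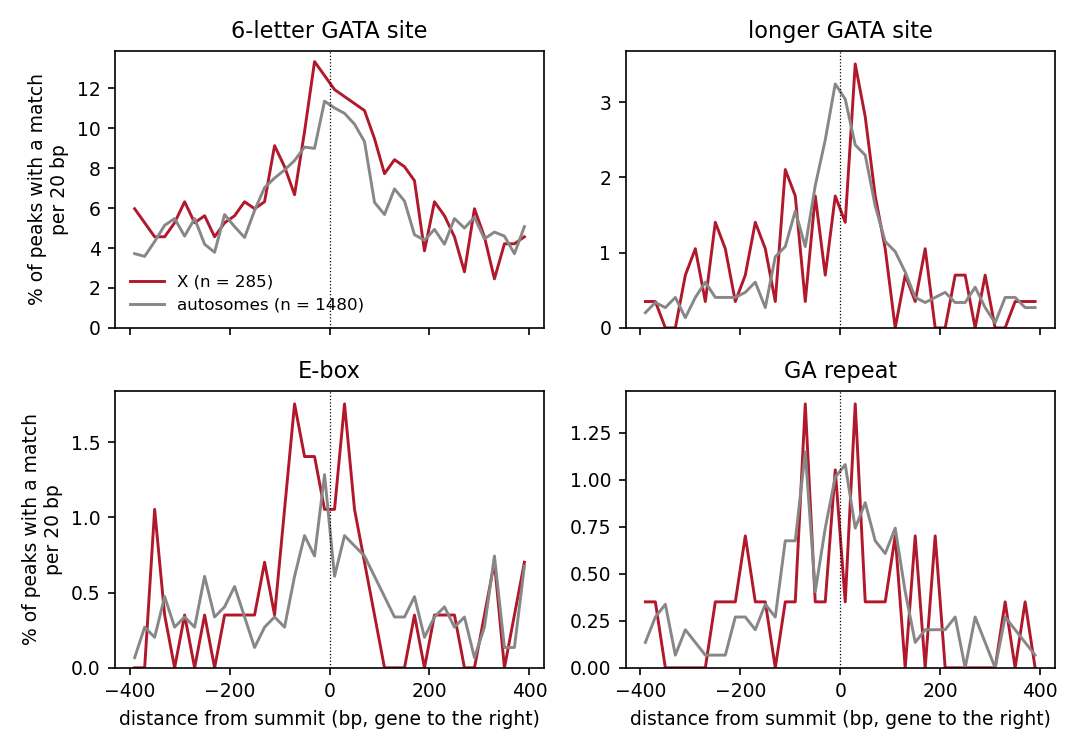
Percent of peaks with a match in each 20 bp step (vertical) by distance from the summit (horizontal, bp, with the gene to the right), for X promoter peaks (n = 285) and autosomal peaks at starts (n = 1480). GATA words are most frequent within 40 bp of the summit, at 13.3% of X promoter peaks between -40 and -20 bp, and the curves of the rarer words rest on few peaks per step (24 X promoter peaks in all with the longer GATA word and 10 with the GA repeat within 50 bp).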

How the data were processed

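ChIP-seq regions from both replicates and from the pooled reads were taken as deposited, 30000 per list, peaks and background together. The authors' signal value was used only to rank regions within a list, and the deposited −log10 q only to check whether it ranked peaks. Summits came from the deposited offset. Per the deposited file listings, replicates were called against a shared control, and peaks are the regions kept by the irreproducible discovery rate (IDR). The names and versions of aligner and peak caller and the IDR threshold were not given in the sources used here, nor was read depth, so precision per peak is unknown. Per the labels, fragments of 150 to 350 bp were selected. The ce10 lists were not used.

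Starts are those of 29314 protein-coding transcripts of Ensembl release 115. Overlap with a replicate means at least 1 bp. The chosen words were counted within 50 bp of each summit, in windows 300 bp away, and 172 bp upstream of X starts without a peak. Shares carry 95% Wilson intervals, and no test was run. Named genes are those nearest the 25 strongest peaks, the 3 strongest of each gene list (2 for short lists), the X genes of sex determination, the 3 with the most unlike replicate ranks, those at the window's edge and those with 2 peaks. Other named genes were chosen after their values were seen. Members and lists were chosen with earlier results of these data known. Alternatives changed the window, starts, strength limit, overlap, word distance and replicate. Python 3.11.15, numpy 2.4.6, pandas 2.3.3, scipy 1.17.1 and matplotlib 3.10.9 were used, and the code was tested on simulated data.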

Additional observations from a re-analysis of the deposited data

How the results depend on the processing

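No paired analysis was possible because the design has 1 group. The median summit position stayed upstream of the start under every alternative. For counts and shares no reversal was defined, so these could only stay or move. The number of X promoter peaks was 177 with a start window of 250 bp and 155 among the 1728 strongest peaks of the genome. Their share of the X peaks was 25.2% with 250 bp, 55.3% with 1000 bp and 35.8% when only the 5′ end of each gene counted as a start. The share of X genes with a peak was 6.55%, 14.2% and 9.67% under these alternatives and 6.15% among the strongest peaks. Peaks found in both replicates were 96.1% when an overlap of 50 percent was required, and those among the strongest regions of both replicates were 90.3% in the stronger set. The upstream share was 80.2% with 1000 bp, and peaks near several genes were 3.39% with 250 bp. A GATA word was found at 23.9% of summits within 25 bp and 55.1% within 100 bp. Using only the strongest regions of a single replicate gave 263 to 288 peaks, a share of X peaks of 39% to 41% and GATA shares of 37.6% to 41%. Over the main results 42 alternative values were much as reported and 15 moved; for the rarer words 30 and 12. Depth is unknown, so what it limits cannot be stated.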

Other observations

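Beyond the 3 peaks named above for unlike replicate ranks, others also differed widely in order, and they were picked here after their values were seen. The peak of oac-14 ranked 2690 in replicate 1 and 178 in replicate 2, that of atf-6, a membrane-bound transcription factor of the unfolded protein response, 12077 and 810, and that of gst-42 3660 and 271. The peak of pek-1, a kinase of translation control, went the other way, with ranks 941 and 12090.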
